A study of Mus musculus with 14 samples.

Results

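The variable segments of the immunoglobulin heavy chain, whose symbols start with Ighv, were followed in tibia RNA from female wild-type C57Bl/6 mice. All rows of the deposited table of estimated counts with an Ighv symbol and a summed count of 20 or more over the 14 libraries were taken, which gave 87 of 183 Ighv rows among 55291 rows in all. Another 54 Ighv rows had lower sums and 42 were at 0 in every library. The 87 segments held 98.5% of all Ighv counts, 19359 of 19648. They were chosen by that sum, so that their presence is no finding. Just inside the limit lay Ighv5-15 with a sum of 24.9 and Ighv1-36 with 26.4. Just outside lay Ighv3-4 with 19.0 and Ighv1-23 with 17.9.

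Mice had been ovariectomized (OVX) and given hippuric acid (OVX-HA, 3 libraries), 3'(3'hydroxyphenyl) propionic acid (OVX-PPA, 2 libraries), zoledronic acid (OVX-ZA, 3 libraries) or phosphate-buffered saline (OVX-PBS, 3 libraries), or had sham surgery (sham, 3 libraries). Dosing began 2 to 4 days after surgery and lasted 8 weeks. Hippuric acid and the propionic acid are small aromatic acids known as breakdown products of plant polyphenols, and zoledronic acid is a bisphosphonate that stops bone resorption by osteoclasts. Neither the doses, the age of the mice nor whether each library came from a separate animal is stated in the labels, so that p-values measure the spread between these samples, which may be technical.

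A B cell builds the gene for its antibody heavy chain in the bone marrow. It first joins a D to a J segment, then adds a single V segment, and the joined exon is transcribed with a constant gene such as Ighm. Each B cell and all its descendants therefore transcribe mainly the same V segment, and a plasma cell, the antibody-secreting end stage that often lodges in marrow, makes far more of that transcript than a resting B cell does. In the mouse the V segments lie in a long array on chromosome 12. The families nearest to the D segments include Ighv5 and Ighv2, and the distal part is dominated by Ighv1 (J558), the largest family. In whole-bone RNA more B-lineage cells and more RNA per cell cannot be told apart.

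In this annotation (GENCODE M21, mouse build mm10) the 87 segments span chromosome 12 from position 113578504 to position 116000461 on the minus strand, with the low positions nearest to the D segments. Of these, 86 are annotated as V genes and 1, Ighv1-41, as a V pseudogene. A V segment gene has a short leader exon, an intron and the V exon, and the annotated transcripts here measure 329 to 480 nt with a median of 353 nt. The 7 segments that held the top share in at least 1 library are shown first. Each line gives the last 300 bases of the transcript, 5′ to 3′, which lie in the V exon and end with the codon of the conserved cysteine and the first codons of the third hypervariable loop. Capitals mark bases that differ from the nearest other Ighv sequence or have no counterpart in it.
Ighv1-53: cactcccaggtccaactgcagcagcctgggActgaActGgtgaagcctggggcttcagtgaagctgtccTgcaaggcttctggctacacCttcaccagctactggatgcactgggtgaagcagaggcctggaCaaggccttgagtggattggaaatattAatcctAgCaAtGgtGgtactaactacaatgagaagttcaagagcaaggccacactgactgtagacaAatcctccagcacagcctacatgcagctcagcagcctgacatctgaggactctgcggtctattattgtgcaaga
Ighv1-64: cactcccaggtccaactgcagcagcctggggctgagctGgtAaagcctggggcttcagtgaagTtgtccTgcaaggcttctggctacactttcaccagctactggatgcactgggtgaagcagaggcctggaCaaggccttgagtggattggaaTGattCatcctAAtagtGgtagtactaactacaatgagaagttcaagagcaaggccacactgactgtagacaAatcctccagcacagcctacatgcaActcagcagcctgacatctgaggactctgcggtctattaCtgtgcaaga
Ighv3-6: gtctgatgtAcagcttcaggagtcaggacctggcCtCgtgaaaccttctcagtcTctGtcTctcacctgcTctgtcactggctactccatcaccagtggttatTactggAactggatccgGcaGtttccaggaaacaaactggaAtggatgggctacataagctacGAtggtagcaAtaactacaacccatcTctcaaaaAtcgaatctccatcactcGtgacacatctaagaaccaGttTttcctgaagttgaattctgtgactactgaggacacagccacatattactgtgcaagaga
Ighv1-26: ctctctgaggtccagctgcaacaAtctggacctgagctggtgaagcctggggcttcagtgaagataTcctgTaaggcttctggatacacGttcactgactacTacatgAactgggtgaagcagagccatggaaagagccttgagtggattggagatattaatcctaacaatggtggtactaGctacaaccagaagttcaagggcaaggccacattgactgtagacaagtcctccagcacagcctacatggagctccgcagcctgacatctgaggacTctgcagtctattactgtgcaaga
Ighv1-9: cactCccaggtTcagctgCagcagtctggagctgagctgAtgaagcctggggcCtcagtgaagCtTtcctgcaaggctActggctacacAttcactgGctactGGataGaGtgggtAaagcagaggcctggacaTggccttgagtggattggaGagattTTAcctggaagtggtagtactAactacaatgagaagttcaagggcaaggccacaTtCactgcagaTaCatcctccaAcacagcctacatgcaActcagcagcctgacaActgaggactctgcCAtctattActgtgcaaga
Ighv1-50: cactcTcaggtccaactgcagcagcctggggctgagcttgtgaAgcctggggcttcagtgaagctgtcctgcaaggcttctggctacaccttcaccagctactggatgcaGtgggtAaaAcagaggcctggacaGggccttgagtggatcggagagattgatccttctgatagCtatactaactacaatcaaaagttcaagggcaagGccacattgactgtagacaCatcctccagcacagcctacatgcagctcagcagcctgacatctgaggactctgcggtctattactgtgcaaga
Ighv14-3: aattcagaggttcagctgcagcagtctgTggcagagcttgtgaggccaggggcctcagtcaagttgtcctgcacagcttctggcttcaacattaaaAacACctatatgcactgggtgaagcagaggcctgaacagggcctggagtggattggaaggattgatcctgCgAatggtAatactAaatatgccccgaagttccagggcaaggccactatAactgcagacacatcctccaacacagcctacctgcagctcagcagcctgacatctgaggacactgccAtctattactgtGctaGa
They come from the GENCODE transcripts and were placed on mm10. Ighv1-53 lies at chr12:115158403-115158702, Ighv1-64 at chr12:115507545-115507844, Ighv3-6 at chr12:114288152-114288451 and Ighv1-26 at chr12:114788372-114788671. Ighv1-9 lies at chr12:114583569-114583868, Ighv1-50 at chr12:115119748-115120047 and Ighv14-3 at chr12:114059845-114060144. Ighv1-26 differs from Ighv1-18 by 8 of 300 bases and Ighv1-50 from Ighv1-69 by 9 of 300. Ighv14-3 differs from Ighv14-1 by 12 of 300 bases, Ighv1-53 from Ighv1-62 by 12 of 299 aligned bases and Ighv1-64 from Ighv1-62 by 13 of 299, each with 1 further base that has no counterpart. Ighv3-6 differs from Ighv3-1 by 20 of 300 bases and Ighv1-9 from Ighv1-77 by 31 of 300, which makes these 2 the most distinct of the 7.

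Reads shared between segments limit every single value. Reads were 75 nt long, and 57 of the 87 segments have at least 1 stretch of 75 nt that occurs unchanged in another Ighv transcript, whereas 30 have none. The median segment shares 6.45% of its 75-nt stretches. Its nearest relative is 95.4% identical in the median, with a range of 79.7 to 99.7%. Of the 1374 Ighv values above 0, 696 (50.7%) were whole within 0.01, so that the others hold a fraction of a read. A whole value can still hold split reads, and values within 0.01 of 0 count as whole here. In OVX-HA replicate 1, for example, the near-identical Ighv1-71 and Ighv1-62-2 were listed with 5.0005 and 4.9995 counts. Summed by family, 189 of 194 values (97.4%) were whole, and the 5 that were not all belonged to Ighv1. Family sums are therefore firmer than single segments. Somatic hypermutation and the joined D and J bases can keep further reads from being placed, and this was not measured.

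The clearest case is Ighv1-71 and Ighv1-62-2, whose transcripts differ by 1 base where they align. It lies in the leader exon, of which the coding part is shown with the differing base in capitals.
Ighv1-71: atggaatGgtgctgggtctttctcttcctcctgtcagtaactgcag
Ighv1-62-2: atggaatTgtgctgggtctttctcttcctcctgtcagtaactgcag
The Ighv1-71 stretch lies at chr12:115742602-115742647 and the Ighv1-62-2 stretch at chr12:115446805-115446850, both on the minus strand. Ighv1-71 shares 97.2% of its 75-nt stretches and Ighv1-62-2 shares 91.1%. In OVX-ZA replicate 3 each was listed with 7.50 counts, and their sum was 15.0. In OVX-ZA replicate 1 Ighv1-71 was listed with 8.31 and Ighv1-62-2 with 0.691, which sum to 9. Only the sum of this pair can be read. The other segment with over 50% shared stretches was Ighv1-72 with 71.7%, whose nearest relative is Ighv1-62-3.

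The libraries held 11896820 (OVX-ZA replicate 1) to 35418060 (OVX-HA replicate 1) estimated counts. Ighv counts made up 0.00126 to 0.0101% of a library, from 237 in OVX-PPA replicate 1 to 3553 in OVX-PBS replicate 3. Levels are given in CPM, counts scaled to a common library size with factors from the trimmed mean of M-values (TMM), and shares as percent of the Ighv counts of the library with a 95% Wilson interval, which covers counting error only. Several libraries stood apart in what else they contained. Glycam1, which marks the high endothelial venules of lymph nodes, read 14.6 and 38.6 CPM in OVX-ZA replicates 1 and 2 and 32.5 CPM in sham replicate 3, against at most 0.915 CPM elsewhere. The 9 lymph node genes found in the table summed to 57.4 to 82.0 CPM in OVX-HA, 42.5 to 93.6 in OVX-PPA, 50.6 to 195 in OVX-ZA, 60.9 to 93.5 in OVX-PBS and 56.4 to 183 in sham. The myelin gene Mobp read 1.17 CPM in OVX-HA replicate 2 and 5.55 CPM in OVX-PBS replicate 1, against 153 to 507 CPM in the other 12 libraries. The 8 central nervous system genes checked summed to 451 CPM in OVX-HA replicate 2 and 513 CPM in OVX-PBS replicate 1. In the other 12 libraries they summed to 1906 (OVX-ZA replicate 1) to 5361 CPM (sham replicate 2). The 9 bone genes checked summed to 1805 to 6616 CPM, and 6 muscle genes to 23187 to 52949 CPM. The tissue labelled tibia thus carried bone, muscle and central nervous system transcripts.

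The summed Ighv level spread widely within groups. It was 28.4, 27.5 and 39.3 CPM in OVX-HA. It was 12.9 and 83.8 CPM in OVX-PPA, and 81.2, 85.7 and 31.4 CPM in OVX-ZA. These stand against 21.6, 19.9 and 94.7 CPM in OVX-PBS and 54.4, 63.9 and 41.8 CPM in sham. OVX-HA libraries lay close together and below every sham library, whereas OVX-PPA, OVX-ZA and OVX-PBS each held a library with several times the level of another. OVX-PPA replicate 2 was 6.52-fold above replicate 1, and OVX-PBS replicate 3 was 4.77-fold above replicate 2. The highest library was 7.36-fold above the lowest. Group means were 31.7 ± 6.57 CPM (SD, n = 3) in OVX-HA, 48.4 ± 50.2 (n = 2) in OVX-PPA and 66.1 ± 30.1 (n = 3) in OVX-ZA, against 45.4 ± 42.7 (n = 3) in OVX-PBS and 53.4 ± 11.04 (n = 3) in sham. Without replicate 3 the OVX-PBS mean was 20.7 CPM, below all 3 OVX-HA libraries. The OVX-PPA mean is that of 1 low and 1 high library, and no p is given for the summed level.

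**Figure D1:**
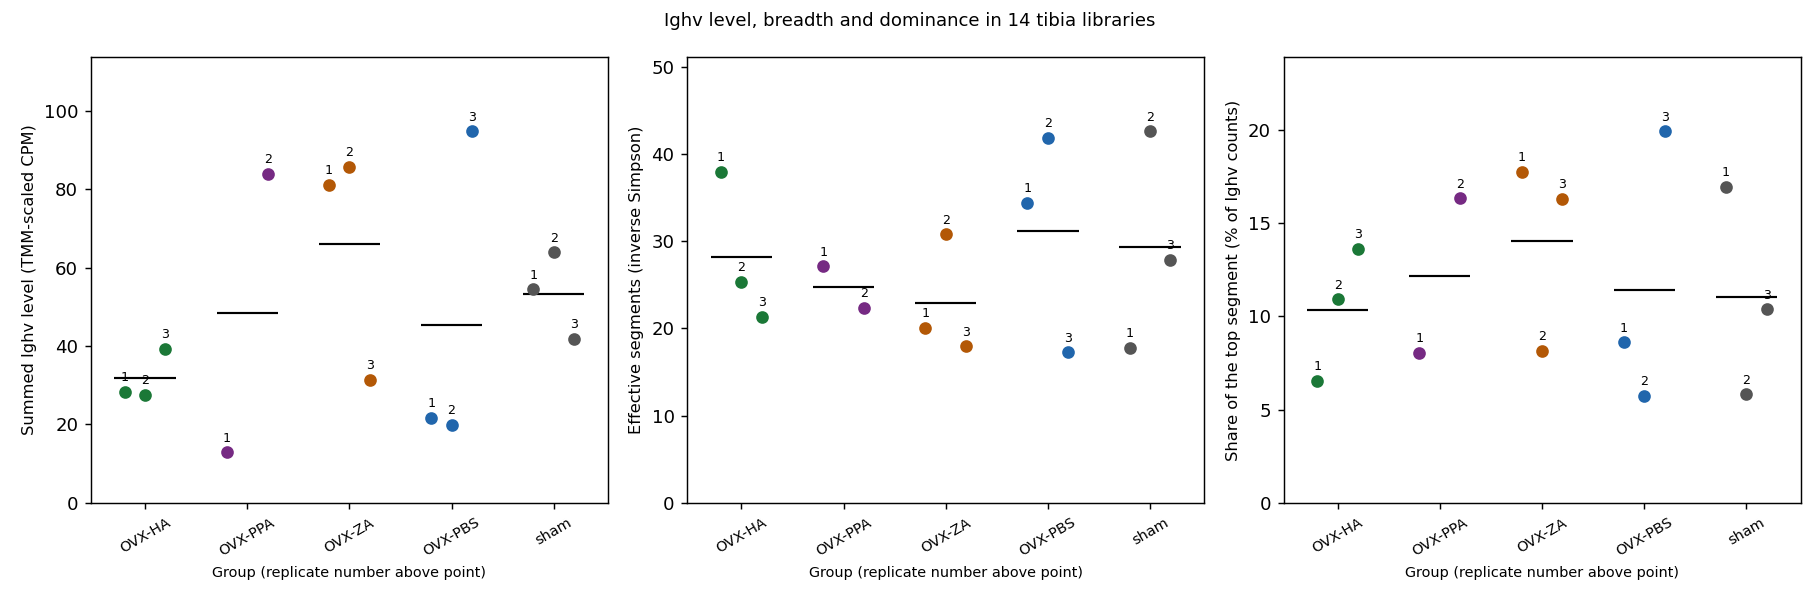
Summed Ighv level in TMM-scaled CPM (left), effective number of segments by the inverse Simpson index (middle) and share of the top segment in percent of Ighv counts (right) for each of 14 libraries, with the replicate number above the point and a line at the group mean. OVX-PBS replicate 3 has the highest level, 94.7 CPM, the lowest effective number, 17.2, and the highest top share, 19.9%.

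The libraries with the most Ighv were also the highest in some other antibody transcripts, but not in all. The 4 highest in Ighv were OVX-PBS replicate 3, OVX-ZA replicate 2, OVX-PPA replicate 2 and OVX-ZA replicate 1. They were also the 4 highest in summed light chain V segments (Igkv), with 111 CPM in OVX-PPA replicate 2, 122 and 158 CPM in OVX-ZA replicates 1 and 2 and 139 CPM in OVX-PBS replicate 3, against at most 106 CPM elsewhere. Jchain, which encodes the joining chain of secreted IgM and IgA, read 65.1 CPM in OVX-PPA replicate 2, 67.0 and 112 CPM in OVX-ZA replicates 1 and 2 and 69.9 CPM in OVX-PBS replicate 3, and at most 64.0 CPM elsewhere. The heavy chain constant genes had the same 4 libraries on top, at 628 CPM or more against at most 580 CPM elsewhere. Other rows broke the order. Light chain constant genes summed to 324 CPM in OVX-PPA replicate 2, against 325, 345 and 386 CPM in sham. Iglv, the other light chain V segments, read 10.3 CPM in OVX-ZA replicate 1, against 13.9 and 10.7 CPM in sham replicates 2 and 3. The 15 plasma cell genes summed highest in OVX-HA replicate 2, with 635 CPM. The 4 libraries with the most Ighv were not alike in other B-lineage genes. Rag1, part of the recombinase that joins V, D and J segments in B-cell precursors, read 34.1 CPM in OVX-PPA replicate 2 and 30.8 CPM in OVX-PBS replicate 3, but 6.18 and 8.36 CPM in OVX-ZA replicates 1 and 2. Glycam1 was high in those OVX-ZA libraries and read 0.227 and 0 CPM in OVX-PPA replicate 2 and OVX-PBS replicate 3. The part of lymph node tissue or of B-lineage content in the Ighv level was not tested.

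Of the constant genes, Ighm, which encodes the heavy chain of IgM, held 60.9 to 79.9% of the counts in every library, and Igha, the chain of IgA, held 4.30 to 21.0%. Ighd held 1.93 to 7.38%. The constant genes summed to 240 CPM in OVX-PPA replicate 1 and 889 CPM in OVX-ZA replicate 2, the lowest and highest library. Ighv counts per 100 constant-gene counts ran from 5.07 in OVX-HA replicate 2 to 12.9 in OVX-ZA replicate 1. All 20 D segment rows were at 0 in these libraries, so that the use of D segments cannot be read here. The 4 Ighj genes summed to 0.0543 to 1.76 CPM.

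Breadth was wide in every library. Of the 87 segments, 84, 69 and 80 had at least 1 count in OVX-HA, 49 and 85 in OVX-PPA and 75, 84 and 71 in OVX-ZA, against 68, 80 and 87 in OVX-PBS libraries and 78, 86 and 78 in sham libraries. The library with the fewest, OVX-PPA replicate 1, also had the fewest Ighv counts, and a segment at 0 there could still hold up to 1.27% (3 counts). Thinned to 238 counts, the rounded total of the shallowest library, the libraries held an expected 49.0 to 68.2 segments. There were 33 segments with a count in every library and 3 with a count in 7 or fewer.

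Evenness varied more than presence. The inverse Simpson index, the number of equally used segments that would give the same concentration, was 38.0, 25.3 and 21.3 in OVX-HA. It was 27.1 and 22.3 in OVX-PPA and 20.1, 30.8 and 17.9 in OVX-ZA, against 34.4, 41.8 and 17.2 in OVX-PBS libraries and 17.7, 42.6 and 27.8 in sham libraries. All groups overlapped. Their means were 28.2 ± 8.69 (SD, n = 3), 24.7 ± 3.40 (n = 2) and 22.9 ± 6.88 (n = 3) in OVX-HA, OVX-PPA and OVX-ZA, against 31.2 ± 12.6 (n = 3) in OVX-PBS and 29.4 ± 12.5 (n = 3) in sham. The number of segments that made up 50% of the counts ran from 7 in OVX-ZA replicate 3 to 16 in OVX-PBS replicate 2 and sham replicate 2. The most concentrated libraries were OVX-PBS replicate 3, sham replicate 1 and OVX-ZA replicate 3, from 3 different groups.

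Which segment led depended on the library. Ighv1-53 led in 6 of 14 libraries, with 6.55% (interval 5.21 to 8.24%) and 13.6% (11.8 to 15.7%) in OVX-HA replicates 1 and 3, 16.3% (13.9 to 19.1%) in OVX-ZA replicate 3, 5.74% (4.14 to 7.71%) in OVX-PBS replicate 2, and 16.9% (15.2 to 18.8%) and 10.4% (8.71 to 12.2%) in sham replicates 1 and 3. Ighv1-64 led in OVX-PBS replicate 3 with 19.9% (18.6 to 21.2%), which was 707 of 3553 counts, and in OVX-PBS replicate 1 with 8.60% (6.08 to 11.7%). Ighv3-6 led in OVX-ZA replicate 2 with 8.13% (6.99 to 9.44%) and in sham replicate 2 with 5.81% (4.93 to 6.86%). The other 4 leaders led in 1 library each. Ighv1-50 held 17.7% (15.5 to 20.3%) of OVX-ZA replicate 1, Ighv1-9 held 16.3% (14.9 to 17.8%) of OVX-PPA replicate 2, Ighv1-26 held 10.9% (9.02 to 13.001%) of OVX-HA replicate 2 and Ighv14-3 held 8.02% (5.19 to 12.2%) of OVX-PPA replicate 1. In some libraries the lead was within counting error, as in OVX-PBS replicate 2, where Ighv10-1, named after its value was seen, followed with 5.65%. The leader was the same per transcript length in 14 of 14 libraries. For Ighv1-53, Ighv1-26 and Ighv1-50 all 14 values held a fraction of a read. So did 13 of 14 values of Ighv1-64, against 2 of 14 for Ighv1-9.

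**Figure D2:**
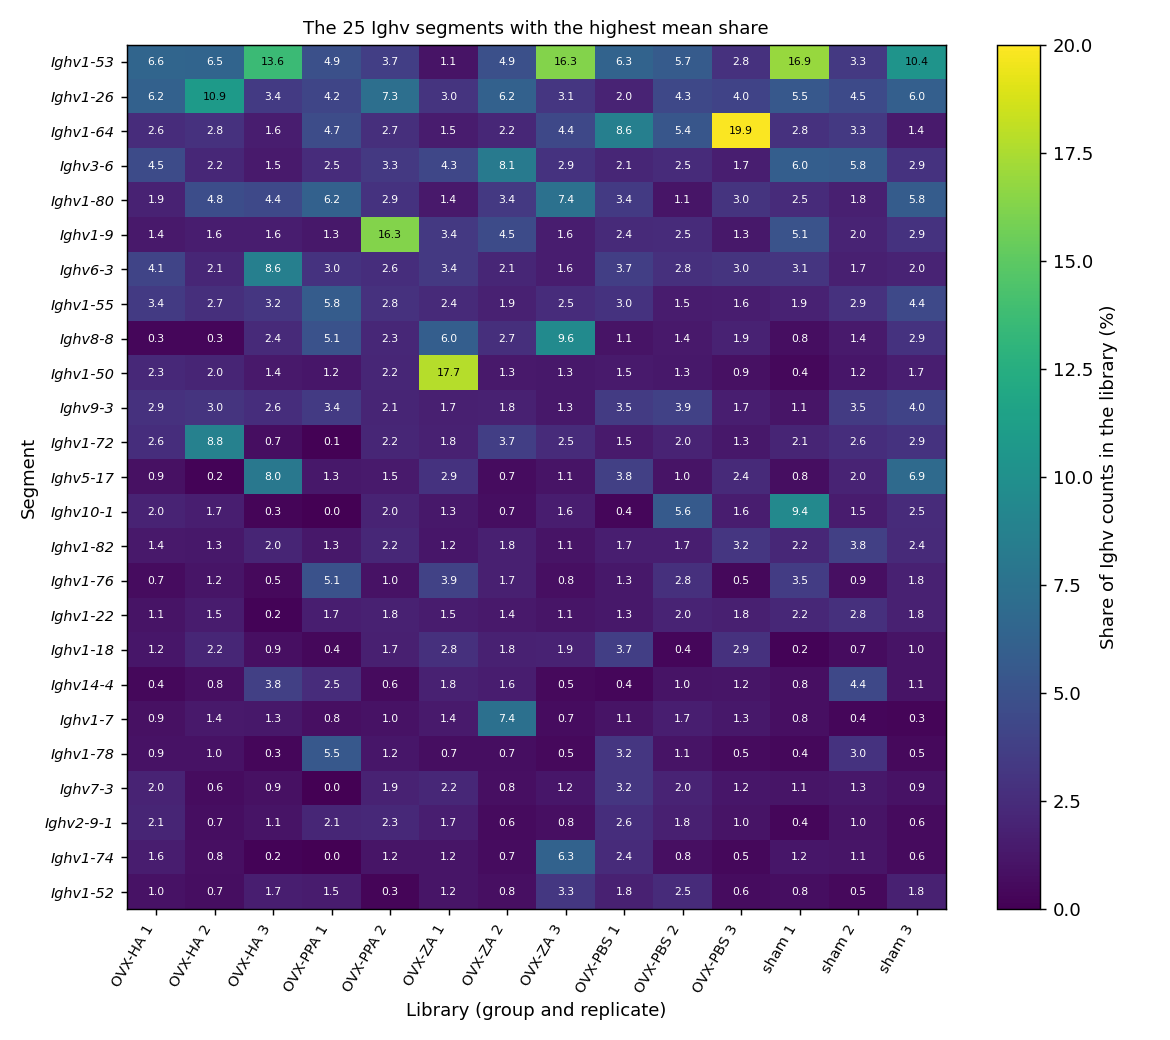
Share of Ighv counts in percent (colour and printed value) of the 25 segments with the highest mean share (rows) in each of 14 libraries (columns). High values are scattered singly over libraries, such as Ighv1-64 with 19.9% in OVX-PBS replicate 3 and Ighv1-50 with 17.7% in OVX-ZA replicate 1.

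Over all libraries, weighted equally, the 10 leading segments held 38.9% of Ighv counts. Ighv1-53 averaged 7.35%, Ighv1-26 averaged 5.06% and Ighv1-64 averaged 4.55%. Ighv3-6, Ighv1-80, Ighv1-9 and Ighv6-3 averaged 3.59, 3.57, 3.41 and 3.12%. Ighv1-55, Ighv8-8 and Ighv1-50 averaged 2.86, 2.72 and 2.60%. Without OVX-ZA replicate 1 the Ighv1-50 mean was 1.44%, which ranks 21 among the segments. Ighv1-9 had 2.42% (rank 13) without OVX-PPA replicate 2, and Ighv8-8 had 2.19% (rank 14) without OVX-ZA replicate 3. Each of the others kept a rank of 10 or better without its own highest library. Of the 10 leading segments, 9 were also among the 10 highest per transcript length.

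Ighv1-53 was used in every library. It made up 6.55, 6.46 and 13.6% in OVX-HA, 4.86 and 3.72% in OVX-PPA and 1.08, 4.90 and 16.3% in OVX-ZA, against 6.34, 5.74 and 2.82% in OVX-PBS libraries and 16.9, 3.31 and 10.4% in sham libraries. Every group other than OVX-PPA held a library at least 2-fold above another, and the groups overlapped. Ighv1-26 behaved more evenly, between 2.03% in OVX-PBS replicate 1 and 10.9% in OVX-HA replicate 2. Ighv1-55 was the steadiest of the 10, with 1.54 to 5.81%.

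Ighv8-8 was a low segment in some libraries and a leading one in others. It read 0.0985, 0.0878 and 0.929 CPM in OVX-HA, 0.651 and 1.89 CPM in OVX-PPA and 4.87, 2.32 and 3.01 CPM in OVX-ZA, against 0.229, 0.274 and 1.81 CPM in OVX-PBS and 0.419, 0.917 and 1.23 CPM in sham. The 3 OVX-ZA libraries lay above all others in level, and replicates 1 and 2 are also among the libraries with the most Ighv in all. In share of Ighv counts they did not stand apart, since OVX-ZA replicate 2 held 2.704%, below OVX-PPA replicate 1 with 5.06% and sham replicate 3 with 2.93%. Ighv6-3 ran from 1.58% in OVX-ZA replicate 3 to 8.63% in OVX-HA replicate 3.

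By family, Ighv1 held 61.6% of Ighv counts on average with its 45 segments, and never less than 52.6 or more than 69.6%. Its group means were 60.1 ± 7.50% (SD, n = 3) in OVX-HA, 61.6 ± 3.52% (n = 2) in OVX-PPA and 63.9 ± 2.02% (n = 3) in OVX-ZA, against 62.8 ± 6.18% (n = 3) in OVX-PBS and 59.8 ± 6.67% (n = 3) in sham. The ranges of the groups overlapped in every pair of groups. Ighv5 followed with 5.93% from 9 segments and Ighv2 with 4.54% from 7. Ighv3, Ighv6 and Ighv8 held 4.23, 4.15 and 4.12% from 4, 2 and 3 segments. Smaller families swung more, as Ighv10, which held 0.422% in OVX-PPA replicate 1 and 10.96% in sham replicate 1. Ighv15, with 2 rows and a sum of 12 counts, and Ighv16, with 1 row at 0, had no segment above the limit.

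By position, the 29 distal segments held 43.7% of Ighv counts on average, the 29 middle ones 34.4% and the 29 proximal ones, nearest to the D segments, 21.9%. The proximal share averaged 24.4 ± 3.35% (SD, n = 3) in OVX-HA, 23.5 ± 4.32% (n = 2) in OVX-PPA and 18.0 ± 1.48% (n = 3) in OVX-ZA, against 22.7 ± 3.81% (n = 3) in OVX-PBS and 21.3 ± 9.84% (n = 3) in sham. Sham alone ran from 10.4 to 29.4%, which covers every other library. The pseudogene Ighv1-41 held at most 1.23% of Ighv counts in any library.

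**Figure D3:**
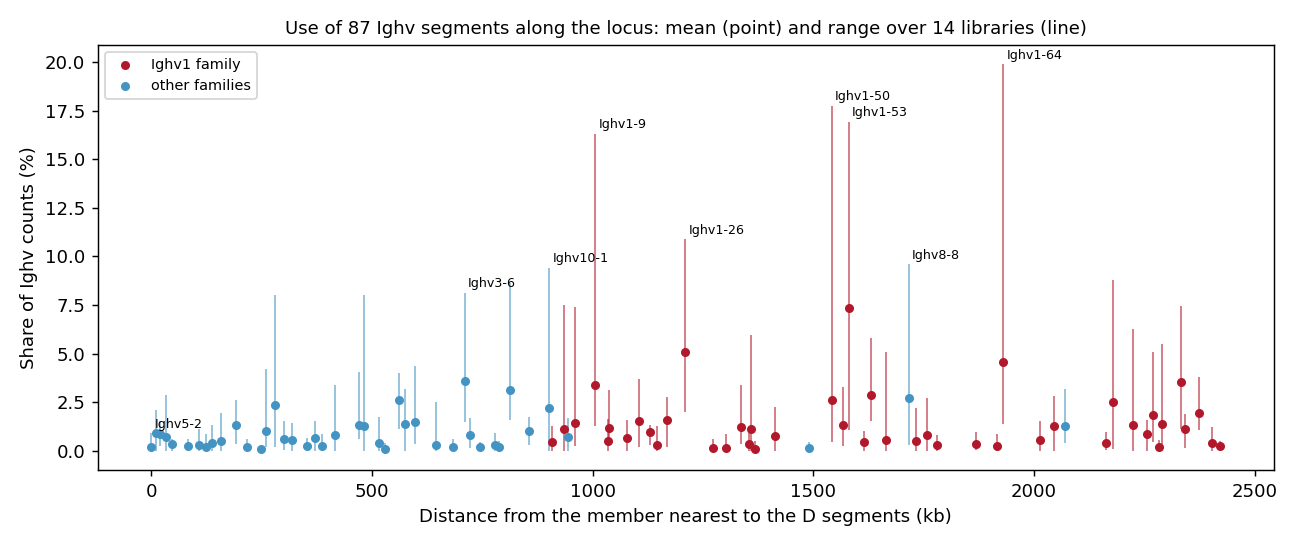
Mean share of Ighv counts in percent (points) and the range over 14 libraries (lines) for 87 segments, by distance in kb from the member nearest to the D segments, Ighv5-2. Ighv1 segments (red) fill the distal side and hold the highest values, up to 19.9% for Ighv1-64, while Ighv5-2 stays below 0.92%.

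Segments known from earlier work on B-cell subsets were mostly minor here. Ighv5-2, the D-proximal segment once called 81X that fetal and newborn B-cell precursors rearrange with preference, had 0 to 0.919% of Ighv counts and 35 counts in all. Ighv2-2, close to it, had 0 to 2.08%. Ighv11-2 and Ighv12-3 encode phosphatidylcholine-binding antibodies of B-1a cells. Ighv11-2 held 4.05, 0.638 and 0.667% in OVX-HA, 0.844 and 1.47% in OVX-PPA and 1.83, 1.15 and 1.71% in OVX-ZA, against 0.796, 0.613 and 1.34% in OVX-PBS libraries and 1.24, 1.15 and 0.868% in sham libraries. OVX-HA replicate 1 stood above the rest. Ighv12-3 never passed 0.508% and had no count in 4 libraries.

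Ighv1-72, the V186.2 segment of the C57BL/6 response to the hapten NP, held 8.80% in OVX-HA replicate 2, its highest library, and 0.117% in OVX-PPA replicate 1, its lowest. Its sum with Ighv1-62-3, with which it shares reads, ran from 0.124 CPM in OVX-PPA replicate 1 to 3.18 CPM in OVX-ZA replicate 2. Ighv7-1, the S107 segment of the T15 antibodies against phosphorylcholine, held 0 to 1.45%. Ighv14-2 held up to 3.41%, in sham replicate 2.

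For 5 segments a single library supplied over 50% of the summed count. OVX-PBS replicate 3 supplied 61.2% of Ighv1-64, 67.1% of Ighv1-5 and 71.3% of Ighv1-43. OVX-PPA replicate 2 supplied 50.1% of Ighv1-9, and OVX-HA replicate 3 supplied 59.2% of Ighv1-56. Ighv1-5 read 7.12 CPM in OVX-PBS replicate 3, against 0.122 and 0 CPM in the other OVX-PBS libraries. All its values were whole, and it had no count in 2 of 14 libraries. Ighv1-56 read 2.00 CPM in OVX-HA replicate 3 and 0.0481 CPM in OVX-HA replicate 2, and it was near 0 in OVX-HA replicate 1.

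Similarity in the use of segments was about as high between groups as within them. The Morisita-Horn index, which is 1 for equal shares and 0 for no segment in common, had a median of 0.576 over the 13 pairs within groups, with a range of 0.394 to 0.796. Over the 78 pairs between groups it had a median of 0.601 and a range of 0.307 to 0.845. The least typical libraries were OVX-PBS replicate 3, with a median of 0.456 to the others, and OVX-ZA replicate 1, with 0.460. Pairs share libraries, and no test was made.

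Comparisons of single segments used the edgeR fit over all 21761 genes that passed a filter on low counts. Of the 87 segments, 66 passed it and 21 did not, and what follows is about the 66. The filter asks for 0.334 CPM in 2 libraries, which 38 of the 66 reached in all 5 groups and the others in some groups only, so that those were tested through the groups where they are high. OVX-HA, OVX-PPA and OVX-ZA were each set against the same 3 OVX-PBS libraries, so that these comparisons share their controls, and OVX-PBS replicate 3 enters 4 of the 5 comparisons. The edgeR fit called 0 of 66 segments at a false discovery rate of 0.05 in any of the 5, and 0% of all genes tested. DESeq2 also called 0 segments in each. Of all genes it called 1 in OVX-PBS against sham, 32 in OVX-ZA against OVX-PBS and 0 in the others. The shares of all genes given below beside unadjusted p are those of edgeR, also where a DESeq2 count stands there. Medians over segments below describe those that passed the filter, beside medians of all genes that lay between -0.04 and 0.02.

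**Figure D4:**
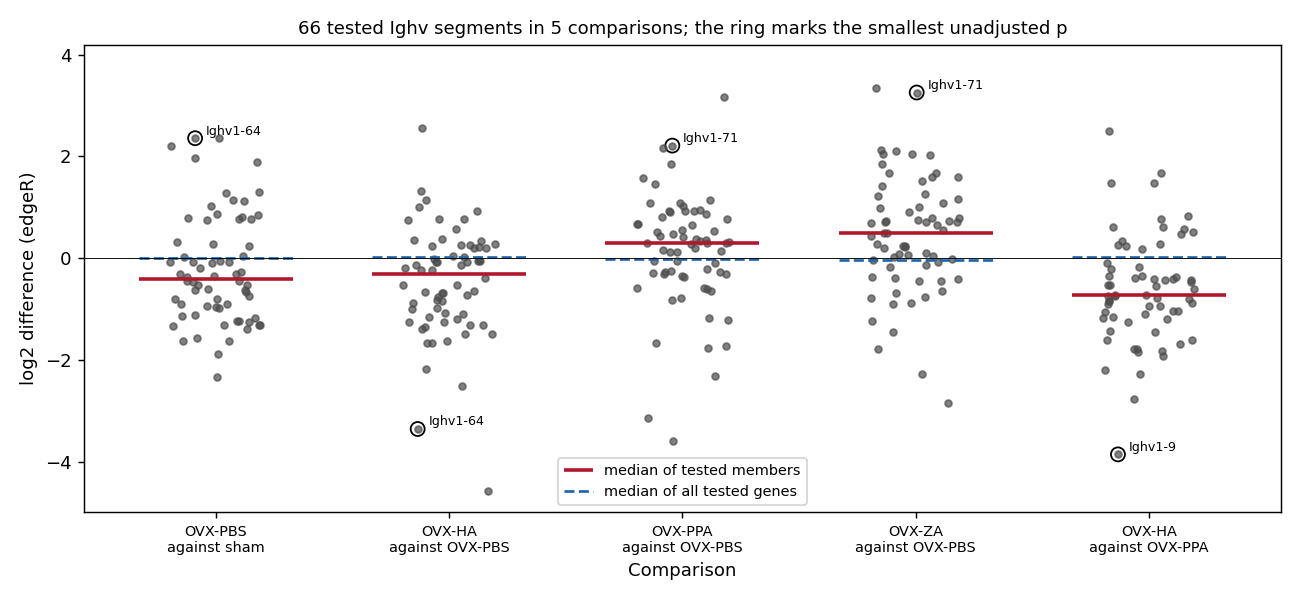
The log2 differences from the edgeR fit for 66 tested segments (points) in 5 comparisons, with the median of the segments (red line) and of all tested genes (dashed line), and a ring around the segment with the smallest unadjusted p. The segment medians run from -0.72 for OVX-HA against OVX-PPA to 0.49 for OVX-ZA against OVX-PBS.

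To ask what ovariectomy changed, OVX-PBS was compared with sham. The 66 segments had a median log2 difference of -0.41, 22 above 0 and 44 below. Unadjusted p was below 0.05 for 2 of them, Ighv1-64 and Ighv1-11, against 2.73% of all genes, and DESeq2 had 3. No segment was higher in OVX-PBS without overlap between the libraries, against 4.03% of all genes, and 2 segments were lower, Ighv1-11 and Ighv10-3, against 3.61%. Here and in the comparisons that follow, segments listed for an unadjusted p below 0.05 or for not overlapping were listed after their values were seen. Ighv1-64 read 1.85, 1.06 and 18.8 CPM in OVX-PBS, against 1.53, 2.10 and 0.590 CPM in sham. A single OVX-PBS library was high and the rest overlapped. Its log2 difference was 2.36 ± 0.892 (SE, adjusted p = 0.913), and -0.035 without OVX-PBS replicate 3. Ighv1-11 read 0.0572, 0.0609 and 0.187 CPM in OVX-PBS, against 0.903, 0.310 and 0.505 CPM in sham, with a log2 difference of -2.33 ± 1.06 (adjusted p = 0.913). Ighv1-18 had 1.89 ± 1.05 and Ighv10-3 had -1.88 ± 0.874 (both adjusted p = 0.913). The median of the segments was -1.40 without OVX-PBS replicate 3, and 0.093 without sham replicate 2.

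OVX-HA against OVX-PBS asks what hippuric acid changed after ovariectomy. The median was -0.32, with 21 segments above 0 and 45 below. Unadjusted p was below 0.05 for Ighv1-64 and Ighv1-5, against 1.47% of all genes, and for 2 segments by DESeq2. No segment was higher in OVX-HA without overlap, against 2.24% of all genes. Ighv1-64 and Ighv2-9 were lower in every OVX-HA library, against 1.82% of all genes. Ighv1-64 read 0.724, 0.783 and 0.628 CPM in OVX-HA, against 1.85, 1.06 and 18.8 CPM in OVX-PBS. Its log2 difference was -3.36 ± 0.945 (SE, adjusted p = 1.00), and -0.97 without OVX-PBS replicate 3. Ighv1-5 had -4.58 ± 1.82, and 0.39 without that library. Higher estimates came from Ighv1-56 with 2.56 ± 1.43, which did not pass the filter without OVX-HA replicate 3, and Ighv1-71 with 1.01 ± 0.729 (adjusted p = 1.00 for each). Summed with its near-identical twin Ighv1-62-2, Ighv1-71 had 0.41 ± 0.625 (adjusted p = 1.00), with 0.191 ± 0.111 CPM for the pair in OVX-HA and 0.141 ± 0.0397 CPM in OVX-PBS (SD, n = 3 each). The median of the segments turned to 0.51 without OVX-PBS replicate 3.

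OVX-PPA against OVX-PBS asks the same of the propionic acid, with only 2 treated libraries. The median was 0.29, with 40 segments above 0 and 26 below. Unadjusted p was below 0.05 for Ighv1-71, Ighv1-9 and Ighv1-64, against 1.87% of all genes, and for 3 segments by DESeq2. Without overlap, 5 segments were higher in OVX-PPA (Ighv1-39, Ighv1-71, Ighv1-76, Ighv1-78 and Ighv14-3, against 11.7% of all genes) and 3 were lower (Ighv1-52, Ighv1-84 and Ighv10-3, against 8.74%). Ighv1-9 read 0.163 and 13.7 CPM in OVX-PPA, against 0.515, 0.487 and 1.25 CPM in OVX-PBS. Its OVX-PPA libraries thus fell on both sides of the controls. The log2 difference was 3.17 ± 1.10 (SE, adjusted p = 1.00), and -2.23 without OVX-PPA replicate 2. Ighv1-71 summed with Ighv1-62-2 had 1.81 ± 0.640 (adjusted p = 1.00). Ighv1-64 had -2.32 ± 1.05 and Ighv1-52 had -1.17 ± 0.585, neither past the threshold (adjusted p = 1.00). The median was -2.37 without OVX-PPA replicate 2 and 1.22 without OVX-PBS replicate 3.

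OVX-ZA against OVX-PBS asks what zoledronic acid changed. The median was 0.49, with 45 segments above 0 and 21 below. Unadjusted p was below 0.05 for 7 segments, against 3.36% of all genes, and DESeq2 had 8. Of these 7, Ighv1-71, Ighv1-50, Ighv1-76, Ighv3-6, Ighv5-16 and Ighv8-8 were higher and Ighv1-64 lower. Without overlap, Ighv1-52, Ighv1-61, Ighv1-71, Ighv1-74 and Ighv8-8 were higher in OVX-ZA (5 segments, against 4.19% of all genes) and Ighv13-2 was lower (1 segment, against 9.96%).

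Ighv1-71 had the smallest p of all segments in any comparison, but only its sum with Ighv1-62-2 can be read. The pair together read 0.742, 0.581 and 0.619 CPM in OVX-ZA, against 0.114, 0.122 and 0.187 CPM in OVX-PBS, from 2 to 15 counts a library. Every OVX-ZA library was above every OVX-PBS library. The pair had a log2 difference of 2.11 ± 0.597 (SE, edgeR adjusted p = 0.899). Ighv1-71 alone read 0.685, 0.507 and 0.309 CPM in OVX-ZA, against 0.0572, 0.0609 and 0.0272 CPM in OVX-PBS, and had 3.26 ± 0.652 (SE, edgeR adjusted p = 0.443, unadjusted p = 3.05e-04). It reached the level the filter asks for in OVX-ZA replicates 1 and 2 and in OVX-PPA replicate 2, and in no OVX-PBS library, so that it was tested only through libraries where it is high. With no filter it had 3.29 (adjusted p = 0.451), and over all alternatives its adjusted p lay between 0.164 and 1.00. In the other groups the pair read 0.274, 0.234 and 0.0656 CPM in OVX-HA, 0.217 and 0.778 CPM in OVX-PPA, and 0.161, 0.310 and 0.108 CPM in sham. The pair was thus also high in OVX-PPA replicate 2.

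Ighv1-50 read 14.4, 1.15 and 0.393 CPM in OVX-ZA, against 0.316, 0.253 and 0.877 CPM in OVX-PBS. The estimate of 3.34 ± 1.15 (SE, adjusted p = 0.899) comes from OVX-ZA replicate 1, and without that library it was 0.63. Ighv3-6 read 3.46, 6.97 and 0.908 CPM in OVX-ZA, against 0.457, 0.487 and 1.59 CPM in OVX-PBS, so that the groups overlapped. Ighv1-64 had -2.28 ± 0.910 (adjusted p = 0.899), and 0.16 without OVX-PBS replicate 3. Ighv4-1 had -1.79 ± 1.06 (adjusted p = 0.899). OVX-ZA replicates 1 and 2 are the libraries with high Glycam1, and replicate 3 has the lowest summed Ighv level of the group. Without replicates 1 and 2 and sham replicate 3, which leaves OVX-ZA replicate 3 alone, the median of the segments was -1.14. Without OVX-PBS replicate 3 it was 1.56, without OVX-PBS replicate 2 it was 0.21 and without OVX-ZA replicate 2 it was 0.081.

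**Figure D5:**
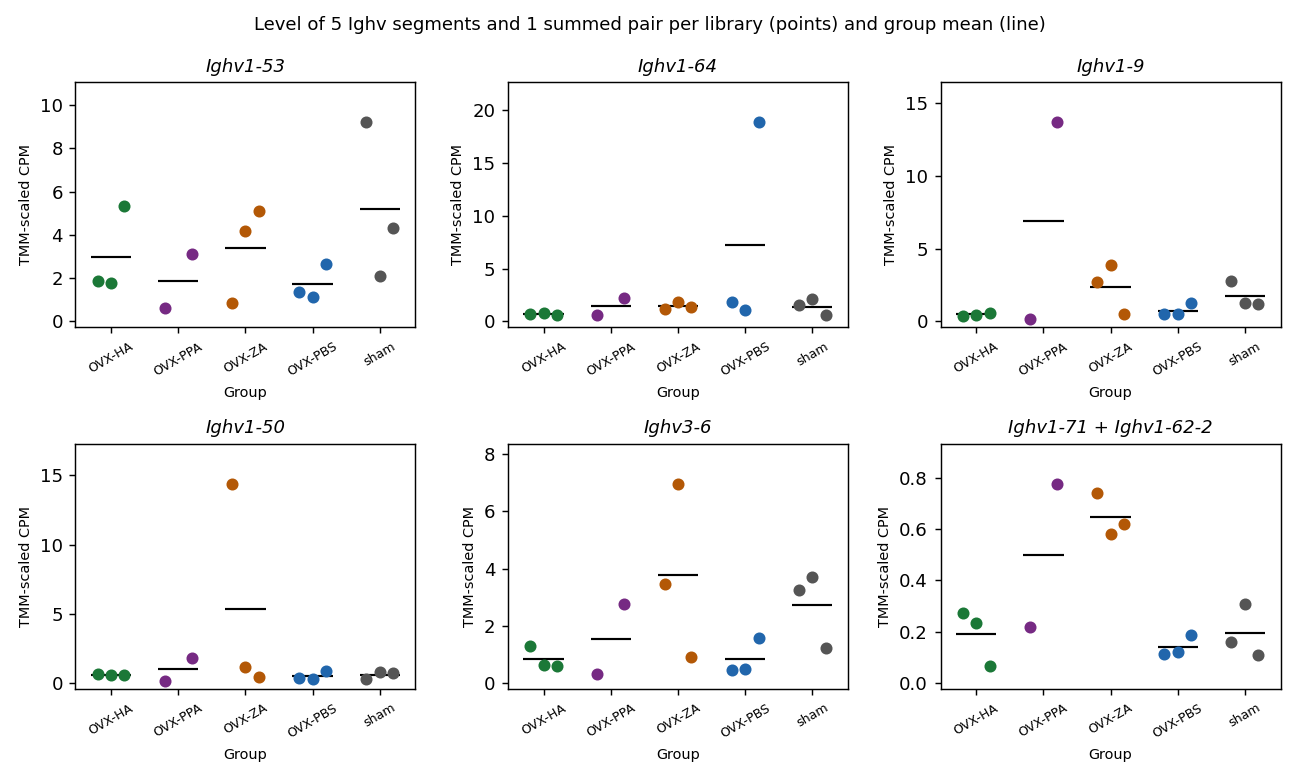
Level in TMM-scaled CPM (points, 1 per library) and group mean (line) of 5 segments and of the summed pair Ighv1-71 and Ighv1-62-2 in 5 groups. Ighv1-64, Ighv1-9 and Ighv1-50 each have 1 library far above all others (18.8, 13.7 and 14.4 CPM), whereas the 3 OVX-ZA libraries of the pair all lie at or above 0.581 CPM and the OVX-PBS ones at or below 0.187 CPM.

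Between the small acids, OVX-HA was compared with OVX-PPA. The labels do not state their doses, so that it is not known whether they match. The median was -0.72, with 16 segments above 0 and 50 below. Unadjusted p was below 0.05 for 1 segment, Ighv1-9, against 1.19% of all genes, and for 2 by DESeq2. Ighv1-76 and Ighv1-78 were lower in OVX-HA without overlap, against 3.68% of all genes, and none was higher, against 6.55%. Ighv1-9 read 0.383, 0.439 and 0.614 CPM in OVX-HA, against 0.163 and 13.7 CPM in OVX-PPA. Its log2 difference of -3.86 ± 1.13 (SE, adjusted p = 1.00) became 1.52 without OVX-PPA replicate 2. Ighv1-78 had -1.92 ± 0.894, Ighv1-52 had 0.78 ± 0.588 and Ighv1-58 had 1.68 ± 1.36 (adjusted p = 1.00 for each). Without OVX-PPA replicate 2 the median of the segments was 1.85, and without OVX-PPA replicate 1 it was -1.38.

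Genes that act on these segments, or mark the cells that use them, did not pass the test either. The edgeR fit called 0 of 19 genes of V(D)J recombination and class switching, 0 of 14 of the pro-B and pre-B cell list, 0 of 16 mature B cell genes and 0 of 15 plasma cell genes in each comparison, and DESeq2 also called 0 of each. In OVX-PBS against sham all 14 pro-B and pre-B cell genes were above 0, as were 51.4% of all genes, with a median log2 difference of 0.88, while the Ighv median was -0.41. Unadjusted p was below 0.05 for 10 of the 14, for 4 V(D)J genes, 2 mature B cell genes and 0 plasma cell genes, against 2.73% of all genes. In OVX-ZA against OVX-PBS 13 of the 14 were below 0, while 43.8% of all genes were above 0, with a median of -0.79, while the Ighv median was 0.49. There unadjusted p was below 0.05 for 7 of the 14, all lower in OVX-ZA, and for 3 V(D)J genes. It was also below 0.05 for 2 mature B cell genes, both lower, and 3 plasma cell genes, 2 higher and 1 lower. These counts stand against 3.36% of all genes. The same OVX-PBS libraries enter both. In the other 3 comparisons it was below 0.05 for 0 genes of these 4 lists, by edgeR and by DESeq2. The 9 lymph node genes had medians of -0.89 in OVX-PBS against sham and 1.47 in OVX-ZA against OVX-PBS.

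Vpreb1 and Rag1, chosen after their values were seen, are markers of B-cell precursors from these lists. Vpreb1 encodes part of the surrogate light chain with which a precursor tests its first heavy chain. It read 3.60, 8.13 and 5.19 CPM in OVX-HA, 2.83 and 7.18 CPM in OVX-PPA and 1.86, 2.95 and 2.18 CPM in OVX-ZA, against 4.69, 5.57 and 6.74 CPM in OVX-PBS and 1.38, 2.75 and 2.10 CPM in sham. All OVX-PBS libraries lay above all OVX-ZA and all sham libraries. Its log2 difference was -1.27 ± 0.394 (SE, edgeR adjusted p = 0.899) in OVX-ZA against OVX-PBS and 1.45 ± 0.389 (adjusted p = 0.913) in OVX-PBS against sham. Rag1 read 11.6, 15.2 and 13.97 CPM in OVX-HA, 8.19 and 34.1 CPM in OVX-PPA and 6.18, 8.36 and 5.57 CPM in OVX-ZA, against 9.95, 13.1 and 30.8 CPM in OVX-PBS and 4.64, 11.9 and 7.03 CPM in sham. OVX-PBS overlapped sham here and lay above OVX-ZA. Neither gene passed the threshold.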

How the data were processed

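Poly(A) RNA of 14 tibia libraries was read as 75-nt single reads with a stranded kit, per the labels' protocols. Tools named in the submitters' processing notes are STAR 2.7.8a, Partek, Bowtie2 2.2.5 and CASAVA 1.8.1, without their roles, and the build named there is mm10. Which tool counted reads, and whether it used strand, is not given in the sources used here. The authors deposited estimated counts per gene symbol, not normalized, and a table of log2 values that equals log2 of the count plus 1e-04 minus a constant per library within 0.00553. Only the estimated counts were used, rounded for tests. All 14 columns matched a sample title.

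All libraries entered 1 quasi-likelihood fit in edgeR (version 4.0.16 under R 4.3.3) with a mean per group, TMM scaling, the edgeR filter by group and Benjamini-Hochberg adjustment over 21761 genes, two-sided, at 0.05. Shares and breadth came from unrounded counts, with thinning by the expected value on rounded counts. Sequences, coordinates and shared 75-nt stretches came from the GENCODE M21 annotation of mm10, in which all 87 members were found. Scripts were tested on simulated data.

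Named segments were the 10 highest mean shares, each library's leader, the 2 smallest p per direction and comparison, up to 5 with over 50% of counts in 1 library, 8 of textbook or positional interest and the neighbours of the limit. Other segments, such as nearest relatives, runners-up, the pseudogene and those listed for an unadjusted p or for not overlapping, were named after their values were seen. Members, lists and the libraries left out in alternatives were chosen with earlier results of these data known. Correlations of same-numbered libraries ran from -0.554 to 0.425 over 26 pairs, and those of other pairs between groups from -0.549 to 0.657. They gave no sign that the replicate numbers of the labels pair the samples. With 2 or 3 libraries a group they cannot exclude such a pairing. Alternatives were DESeq2 (1.42.0), its size factors, no filter, a replicate block, only the groups compared, libraries left out and, chosen after seeing the data, Ighv1-71 summed with Ighv1-62-2.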

Additional observations from a re-analysis of the deposited data

How the results depend on the processing

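The count of Ighv segments called was 0 in all 40 alternatives and all 28 fits with a library left out. Medians over the tested segments were less stable. Taking out the 3 libraries with lymph node transcripts leaves only replicate 3 in OVX-ZA. The OVX-ZA against OVX-PBS median was then -1.14 and Ighv1-50 was -0.29. Without the 2 libraries low in central nervous system transcripts the medians were -0.66 for OVX-HA against OVX-PBS and -0.15 for OVX-PBS against sham. The cause was not tested. With a single library left out, medians ran from -0.69 to 0.51 (OVX-HA against OVX-PBS), -2.37 to 1.22 (OVX-PPA against OVX-PBS), 0.081 to 1.56 (OVX-ZA against OVX-PBS), -1.40 to 0.093 (OVX-PBS against sham) and -1.38 to 1.85 (OVX-HA against OVX-PPA). Ighv1-64 then ran from -3.65 to 0.11 in OVX-PPA against OVX-PBS, from -2.79 to 0.16 in OVX-ZA against OVX-PBS and from -0.035 to 2.87 in OVX-PBS against sham. Ighv1-5 ran from -5.13 to 0.39 in OVX-HA against OVX-PBS. Ighv1-9 ran from -2.23 to 4.14 in OVX-PPA against OVX-PBS and from -4.83 to 1.52 in OVX-HA against OVX-PPA. The lone OVX-PPA library is then assumed to vary like the other groups. Ighv1-71 summed with Ighv1-62-2, an alternative chosen after seeing the data, had 2.11 in OVX-ZA against OVX-PBS in place of 3.26 and 0.41 in OVX-HA against OVX-PBS in place of 1.01. With the replicate block, which the same-number correlations do not bear out, the OVX-ZA against OVX-PBS median was 0.46, 0 segments were called and no call changed. With at least 3 counts required, segments present averaged 62.7 in OVX-HA, 60.3 in OVX-ZA, 62.7 in OVX-PBS and 68.7 in sham. They were 90.7, 85.0, 89.3 and 93.7 in these groups with all Ighv rows above 0, and 51.0, 51.0, 50 and 51.3 with sums of 100 or more. Without each library's top segment the inverse Simpson index was 33.1 in OVX-PPA and 31.2 in OVX-ZA, and the Ighv1 share in OVX-ZA was 60.9%. With sums of 100 or more that index was 20.8 in OVX-PPA. The other repertoire results moved by less than the spread between replicates. DESeq2 called 1, 0, 0, 32 and 0 genes of all tested in OVX-PBS against sham, OVX-HA, OVX-PPA and OVX-ZA against OVX-PBS and OVX-HA against OVX-PPA. Depth limits all segment values, since the shallowest library held 237 Ighv counts.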
